A study of Homo sapiens with 9 samples.

Results

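Antisense long non-coding RNAs are transcripts without a protein product that run on the strand opposite to another gene and carry that gene's name. Here they are the 211 genes of biotype lncRNA whose symbol ends in -AS and a number and whose mean over 9 libraries was at least 2 CPM (a gene's reads scaled to the same library total in every library). They were taken from 60664 listed genes, among them 1526 antisense lncRNAs, and 8 others at that level were left out by name in the rule (those of the HOX clusters, NECTIN3-AS1, OIP5-AS1 and EPB41L4A-AS1). Each was set beside its sense partner, the gene named before -AS. They were chosen by their mean level over the libraries of all 3 groups, so that level is a description. The rule itself uses no comparison between groups, but it was set with earlier results of these data known. Just inside the limit were STARD7-AS1 and SLC25A5-AS1 with 2.02 and 2.03 CPM, and just outside were ALOX12-AS1 with 2.00 and SNTG2-AS1 with 1.99. A limit of 1 CPM would have given 305 genes and a limit of 5 would have given 105. In 18 of the 211 the mean of a group lay under 2 CPM. Without these, 19 fell and 3 rose of 193 in the TTC33 knock-down and 12 fell in the CCDC97 knock-down. These are 11.4% and 6.22% of the 193, against 11.9% and 4.56% of all genes tested.

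Many antisense RNAs begin close to the promoter of their partner, because promoters rich in CG dinucleotides often start transcription in both directions. Others begin far downstream and run back through the partner's end. Some antisense RNAs are known to influence the partner in cis, many have no known function, and a large share of such RNAs is degraded in the nucleus by the RNA exosome with its adaptor complexes.

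The cells were HEK293 Flp-In T-REx, derived from human embryonic kidney, whose inserted transgene is switched on by tetracycline. In 3 libraries the cells expressed a microRNA against CCDC97, in 3 a microRNA against TTC33, and the 3 control libraries came from cells that express no microRNA. All 9 received tetracycline at 100 ng/ml for 3 days. Because the controls express no microRNA, loss of the target and expression of a microRNA as such cannot be told apart. The labels name neither the sequences of the microRNAs nor whether libraries of a group came from separate cultures or clones, so the p-values rest on a spread between libraries that may be technical. The study asked how depletion of either protein changes gene expression.

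Counts assigned to genes numbered 21764203 to 36110891 a library. The targeted mRNAs were lower in their own knock-down, with 19.7% of the control level left for TTC33 and 26.0% for CCDC97. Of 9 genes fixed as known in HEK293 cells, all were tested and their summed level was 963 to 1345 CPM. In controls VIM had 616 CPM and NEFL 188, but LHX1 had 6.25, PAX2 5.71 and NEFM 0.765. Markers of mature kidney tubule and podocyte, 7 in number, summed to at most 1.20 CPM in any library. The highest sums of fibroblast, endothelial, leukocyte and hepatocyte markers were 10.9, 1.14, 0.712 and 0.247 CPM. No pair of libraries in a group was alike within sampling noise. For controls the chi-square over its degrees of freedom lay at 3.59 to 6.31, for the CCDC97 knock-down at 27.7 to 35.8, and for the TTC33 knock-down at 7.61 for replicates 2 and 3 and at 32.3 and 39.2 for replicate 1 against these.

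The annotation placed every one of the 211 antisense genes on the strand opposite to its partner. In 100 of them the antisense RNA and the partner overlapped at their 5 prime ends, and a further 24 ran away from the partner without overlap. In 40 they overlapped at their 3 prime ends, in 25 the partner lay inside the antisense gene, in 21 the antisense gene lay inside the partner, and 1 pair converged without overlap. The nearest annotated starts of antisense RNA and partner were at most 1000 bases apart in 147 pairs (69.7%), with a median of 198 bases over all pairs. This median was 102.5 bases for pairs overlapping at their 5 prime ends and 111 for divergent ones, against 13943.5 for pairs overlapping at their 3 prime ends.

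**Figure D1:**
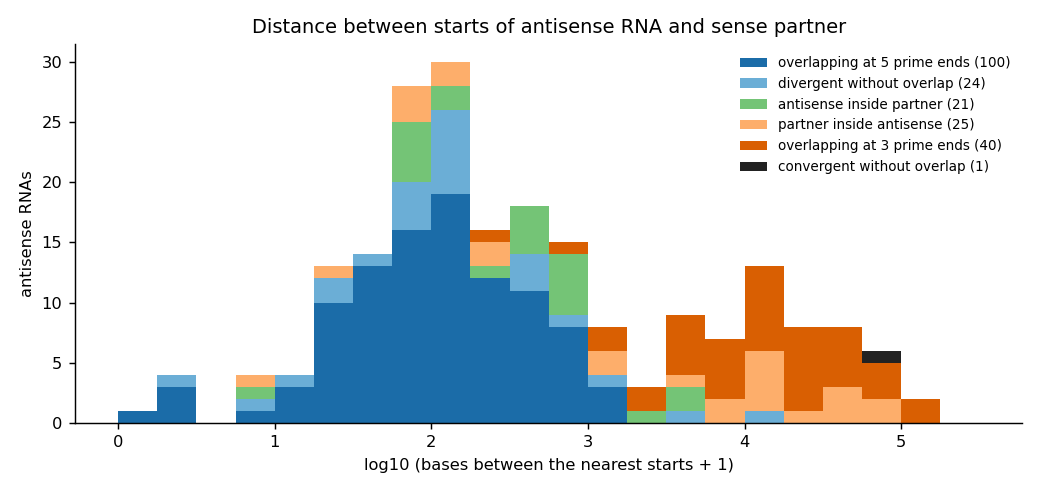
Number of antisense RNAs (vertical axis) by the distance between the nearest annotated starts of antisense RNA and sense partner, as log10 of bases plus 1 (horizontal axis), coloured by how both genes lie to each other. Pairs that overlap at their 5 prime ends or diverge lie mostly below 1000 bases, and the 40 that overlap at their 3 prime ends lie mostly above.

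RefSeq promoter windows (GRCh38.p14, 250 bases before to 50 after the start) matched 163 of the 211 antisense RNAs and 178 of their partners by symbol. Both windows were present for 146 pairs, and in 36 of them the windows overlapped, by a median of 178.5 bases. The antisense windows held a median of 26 CG dinucleotides and the partner windows 25, against 14 over all 27305 windows. Searched on both strands, TATAAA was found in 10 of the 163 antisense windows (6.13%) and in 12% of all windows, CCAAT in 50 (30.7%) against 35.7%, and GGCGGG in 105 (64.4%) against 44.7%. A match is a run of letters and not a site. The windows of all genes were not limited to genes expressed in these cells, and members were not compared with expressed genes alone. The 4 antisense windows printed here belong to pairs with overlapping windows in which a member passed the test described below. They show how much promoter sequence both RNAs of such a pair share. They read 5 prime to 3 prime on the antisense strand, and the bases in capitals also lie in the partner's window, as its reverse complement.
URB1-AS1: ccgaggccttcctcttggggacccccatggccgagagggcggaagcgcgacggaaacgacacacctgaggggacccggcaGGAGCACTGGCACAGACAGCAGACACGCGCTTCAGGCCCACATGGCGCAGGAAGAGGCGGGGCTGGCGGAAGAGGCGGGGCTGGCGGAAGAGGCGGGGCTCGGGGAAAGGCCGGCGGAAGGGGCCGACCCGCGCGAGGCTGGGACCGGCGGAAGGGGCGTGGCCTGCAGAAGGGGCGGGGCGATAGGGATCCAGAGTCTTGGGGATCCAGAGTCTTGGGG
DICER1-AS1: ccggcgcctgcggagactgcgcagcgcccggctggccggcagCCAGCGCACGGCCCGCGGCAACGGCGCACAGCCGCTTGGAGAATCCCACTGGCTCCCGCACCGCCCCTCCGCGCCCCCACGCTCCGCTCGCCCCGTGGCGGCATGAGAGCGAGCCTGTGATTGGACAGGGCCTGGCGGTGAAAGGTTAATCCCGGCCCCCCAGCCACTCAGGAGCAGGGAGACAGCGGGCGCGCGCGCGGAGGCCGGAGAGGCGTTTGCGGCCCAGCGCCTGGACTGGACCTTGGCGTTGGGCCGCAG
ZBED5-AS1: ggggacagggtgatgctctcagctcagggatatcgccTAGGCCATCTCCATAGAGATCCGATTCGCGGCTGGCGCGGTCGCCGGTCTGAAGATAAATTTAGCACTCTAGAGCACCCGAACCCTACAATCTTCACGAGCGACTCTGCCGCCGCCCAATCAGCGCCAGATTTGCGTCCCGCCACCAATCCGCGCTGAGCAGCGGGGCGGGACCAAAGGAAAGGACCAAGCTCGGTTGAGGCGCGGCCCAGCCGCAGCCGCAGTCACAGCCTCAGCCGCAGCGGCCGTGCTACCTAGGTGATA
KMT2E-AS1: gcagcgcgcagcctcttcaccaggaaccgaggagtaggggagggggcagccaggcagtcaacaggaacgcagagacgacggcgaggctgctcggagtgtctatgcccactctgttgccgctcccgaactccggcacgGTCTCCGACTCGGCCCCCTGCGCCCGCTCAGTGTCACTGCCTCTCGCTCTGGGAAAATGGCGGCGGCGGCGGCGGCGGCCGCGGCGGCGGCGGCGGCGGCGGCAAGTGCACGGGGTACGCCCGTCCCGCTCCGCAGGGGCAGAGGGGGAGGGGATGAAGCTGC
These windows lie at chr21:32392883-32393182 on the plus strand for URB1-AS1, at chr14:95157438-95157737 on the plus strand for DICER1-AS1, at chr11:10857967-10858266 on the plus strand for ZBED5-AS1 and at chr7:105014092-105014391 on the minus strand for KMT2E-AS1. The shared stretch was 220 bases for URB1-AS1, 258 for DICER1-AS1, 263 for ZBED5-AS1 and 163 for KMT2E-AS1. None of the 4 windows held TATAAA, those of DICER1-AS1 and ZBED5-AS1 held CCAAT, and those of URB1-AS1 and ZBED5-AS1 held GGCGGG. Their CG counts were 28, 38, 28 and 36 in the order printed.

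Most antisense RNAs were scarce. Their median level in controls was 5.15 CPM, here and below with library totals scaled by TMM factors, against 42.8 CPM for the 195 partners that were tested. Per kilobase of exon the partner was the higher one of the pair in 143 of 197 pairs with both genes tested, by a median of 3.36 times over all 197, and the antisense RNA was higher in 54. The 14 pairs whose partner was too low to be tested are left out of these values and of the partner median. In controls 103 of the 211 were under 5 CPM, 20 were over 20 CPM and only FGD5-AS1 was over 100 CPM.

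FGD5-AS1 had 140 ± 0.831 CPM in controls (SD, n = 3), 148 ± 3.44 in the CCDC97 knock-down and 125 ± 6.66 in the TTC33 knock-down. Its partner FGD5, which encodes an exchange factor for the small GTPase CDC42 known from endothelial cells, was at 0.476 ± 0.0712, 0.853 ± 0.316 and 0.968 ± 0.0666 CPM. Per kilobase of exon FGD5-AS1 thus had 27.2 CPM in controls and FGD5 had 0.0588. TTN-AS1 came next with 59.5 ± 0.625 CPM in controls, while TTN, the gene of the muscle protein titin, had 0.696 ± 0.054. After these came TMEM147-AS1 with 58.2 ± 4.13 CPM in controls, ENTPD1-AS1 with 53.8 ± 3.46, TMEM161B-AS1 with 41.3 ± 2.52 and MRPL20-AS1 with 40.3 ± 2.75. In this order the 1st stands clear of the 2nd, whereas the control values of TTN-AS1 (58.9 to 60.2) lie within those of TMEM147-AS1 (55.2 to 62.9). The 6 had edgeR adjusted p from 0.0742 to 0.951 in the comparisons with control, while FGD5 rose in the TTC33 knock-down (log2 fold change 1.01 ± 0.29, adjusted p = 0.0463).

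Reads in exons that both genes of a pair share can be told apart only if counting used the strand, and the strand setting is not given in the sources used here. Exon bases were shared in 156 of the 211 pairs, with a median of 252.5 bases among these, and 55 pairs shared none. Over all genes, 457 of 699 genes whose exons lie wholly under exons of the other strand had a count, against 19 of 1102 genes whose exons lie wholly under exons of their own strand. A mean count of at least 10 was reached by 63 of the 699 and by 8 of the 1102. The strand setting was not tested otherwise, and the counts may rest on another annotation than the exons used here. Members sharing exon bases had median log2 fold changes of -0.07 (TTC33 knock-down) and -0.13 (CCDC97 knock-down), and members sharing none had -0.12 and -0.14. After correction for GC content and length the TTC33 knock-down values were -0.04 and -0.02, so that their order turned.

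In the TTC33 knock-down more antisense RNAs fell than rose. Of the 211, all of which were tested, 22 fell and 3 rose at an adjusted p of 0.05 in edgeR's quasi-likelihood test over 18299 genes. These are 10.4% and 1.42% of the antisense RNAs, while 5.44% of all genes fell and 6.5% rose. In either direction the share was 11.8%, against 11.9% of all genes. The median log2 fold change was -0.08 for the antisense RNAs, 0.00451 for all genes, -0.09 for the 2824 other lncRNAs tested and 0.02 for 13722 protein-coding genes. The other lncRNAs thus had a median as low, and 2.9% of them fell and 2.02% rose. After correction for GC content and length the medians were -0.04 for the antisense RNAs and -0.05 for the other lncRNAs. The 88 antisense RNAs with a GC content of at least 50% had a median of 0.05 (4 fell and 3 rose), and the 123 under 50% had -0.13 (18 fell and 0 rose). In bulk RNA, fewer cells with an RNA and less of it per cell cannot be told apart. All 3 TTC33 knock-down libraries lay below all 3 controls for 57 of the 211 and above them for 20, where 17.8% and 19% of all genes did so.

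RAP2C-AS1 showed the largest fall among those that passed in the TTC33 knock-down. It lies on chromosome X from 132217147 to 132432862 on the plus strand (GRCh38), and its start is 175 bases from that of RAP2C, which encodes a small GTPase of the Ras family. It had 3.04, 3.16 and 2.79 CPM in controls, 3.04, 2.44 and 2.81 in the CCDC97 knock-down, and 1.45, 1.63 and 1.15 in the TTC33 knock-down. The TTC33 knock-down libraries were all below every other library, and the fold change on the log2 scale was -1.08, with a SE of 0.16 (adjusted p = 0.0023 in edgeR). RAP2C itself had 67.2, 62.2 and 60.8 CPM in controls and 67.8, 37.5 and 41.0 in the TTC33 knock-down, which overlap (log2 fold change -0.38 ± 0.21, adjusted p = 0.235). The difference of RAP2C-AS1 between both knock-downs was -0.96 ± 0.17 on the log2 scale (adjusted p = 0.00356).

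KLRK1-AS1 fell with little spread. Its partner KLRK1 encodes the NKG2D receptor of natural killer and T cells and was too low here to be tested. KLRK1-AS1 had 9.37, 9.31 and 10.1 CPM in controls and 6.68, 6.52 and 6.77 in the TTC33 knock-down (log2 fold change -0.53 ± 0.09, adjusted p = 0.0053), so the groups did not overlap. The CCDC97 knock-down lay between them with 7.57, 7.99 and 8.27 CPM (-0.27 ± 0.09, adjusted p = 0.111). With GC content and length corrected for, the fold change of KLRK1-AS1 in the TTC33 knock-down was -0.35.

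The other antisense RNAs that fell in the TTC33 knock-down belong to partners of varied function. FAM13A-AS1 had 3.95 ± 0.174 CPM in controls and 2.47 ± 0.223 after depletion (SD, n = 3; a log2 fold change of -0.67), and SBF2-AS1, whose partner encodes a myotubularin-related protein, from 4.99 ± 0.253 to 3.19 ± 0.682 CPM (-0.64). SRP14-AS1 (-0.66), TMC3-AS1 (-0.66), SLC25A21-AS1 (-0.54), MSC-AS1 (-0.53), FEZF1-AS1 (-0.52), ZEB1-AS1 (-0.50), GABPB1-AS1 (-0.39) and LOXL1-AS1 (-0.39) fell too. The partners of these 10 encode, among others, transcription factors (MSC, FEZF1, ZEB1, GABPB1), a mitochondrial carrier (SLC25A21) and an enzyme that crosslinks elastin (LOXL1). Of the same 10, 9 had a tested partner, with edgeR adjusted p from 0.0592 (FEZF1, log2 fold change -0.54) to 0.811 (LOXL1, 0.08), and TMC3 was not tested. ZBED5-AS1, whose window is printed above, went from 3.11 ± 0.228 to 2.22 ± 0.223 CPM (-0.48, adjusted p = 0.0387), and ZBED5 did not pass (-0.21, adjusted p = 0.297). CCDC18-AS1 (-0.60), NR2F2-AS1 (-0.52), LIFR-AS1 (-0.43), DHRS4-AS1 (-0.40), UBL7-AS1 (-0.40) and TMEM51-AS1 (-0.70) also passed. MSC-AS1 was at -0.34 after the correction for GC content and length.

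The 3 antisense RNAs that rose in the TTC33 knock-down were KMT2E-AS1, PARD6G-AS1 and ZNF503-AS2. KMT2E-AS1, whose start is 103 bases from that of the SET domain gene KMT2E, had 2.16, 1.99 and 2.73 CPM in controls and 2.96, 3.95 and 4.02 in the TTC33 knock-down (log2 fold change 0.67 ± 0.17, adjusted p = 0.0293). Every TTC33 knock-down library was above every control, by a small margin for replicate 1. KMT2E was at 97.5 ± 1.24 CPM in controls and 111 ± 7.47 in the TTC33 knock-down (0.19 ± 0.08, adjusted p = 0.121).

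**Figure D2:**
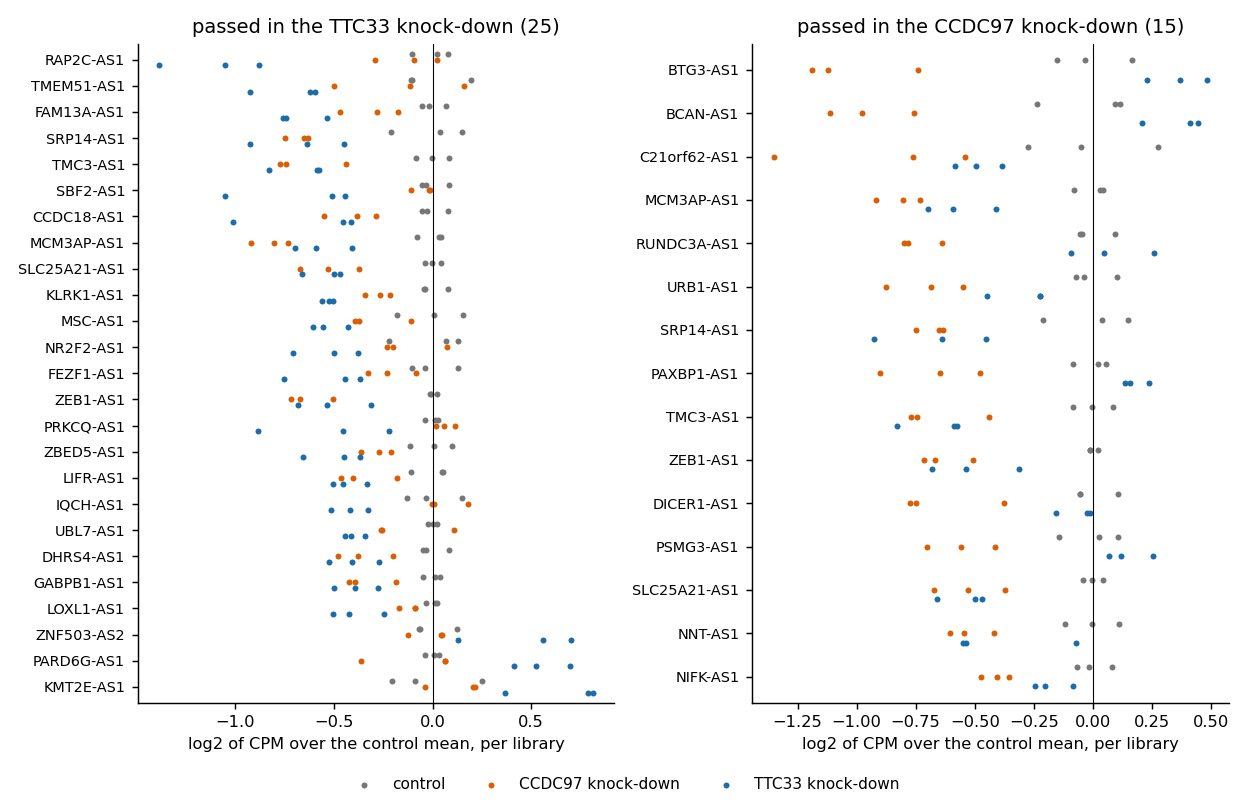
Log2 of CPM over the control mean in each library (horizontal axis) for the antisense RNAs (vertical axis) that passed in the TTC33 knock-down (25, left) and in the CCDC97 knock-down (15, right), one point a library. In each panel the libraries of the named knock-down lie on one side of the controls for every RNA shown, and the other knock-down often lies between or beside them.

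Few of these calls held when single libraries were left out. RAP2C-AS1, MCM3AP-AS1 and KLRK1-AS1 passed in all 9 such fits, and the other 22 lost their call in 2 to 7 of them, with adjusted p up to 0.181. The count of 25 became 56, 5 or 6 without TTC33 knock-down replicate 1, 2 or 3, and 3, 6 or 5 without control replicate 1, 2 or 3. Those that fell in the TTC33 knock-down had a median GC content of 43.9%, the 3 that rose 60.1%, and those that did not pass 48.3%. After correction for GC content and transcript length 43 fell and 10 rose, among them all 25. Of all 18299 genes 2395 fell and 2647 rose with this correction, against 996 and 1190 without it. The part of GC content in the result was not otherwise tested.

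With CCDC97 depleted, 15 of the 211 antisense RNAs fell. That is 7.11%, where 2.49% of all genes fell. None rose in edgeR's test, while 5 were higher at an unadjusted p of 0.05 (48 were lower) and DESeq2 called 1 higher and 24 lower. Over all genes 2.07% rose. The median log2 fold change of the antisense RNAs was -0.13, against 0.000825 over all genes, -0.11 over the other lncRNAs and 0.01 over protein-coding genes. All 3 CCDC97 knock-down libraries lay below all controls for 63 of the 211 and above them for 9, where 15% and 14.9% of all genes did so. The fold change was below 0 for 158 of the 211 antisense RNAs and for 1784 of the 2824 other lncRNAs.

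Chromosome 21 held 5 of the antisense RNAs, BTG3-AS1, URB1-AS1, PAXBP1-AS1, C21orf62-AS1 and MCM3AP-AS1, and all 5 fell in the CCDC97 knock-down. This grouping was made after their values were seen. Of 114 genes on chromosome 21 with a mean of at least 5 CPM, 62 fell (54.4%), and their median log2 differences from the control mean were -0.41, -0.46 and -0.43 in CCDC97 knock-down replicates 1, 2 and 3. Per library the medians of the other 22 chromosomes lay between -0.18 (chromosome 18, replicate 1) and 0.13 (chromosome 3, replicate 2). With TTC33 depleted the median over the same 114 genes was -0.23, -0.21 and -0.21 per library, and 33 of them fell. There the other chromosomes lay per library between -0.22 (chromosome 18, replicate 3, as low as chromosome 21 in that library) and 0.30 (chromosome 19, replicate 3). Whether the DNA copy number of chromosome 21 differed between these cells was not tested. Without its members, 10 of 206 antisense RNAs fell in the CCDC97 knock-down (4.85%), with a median log2 fold change of -0.13.

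**Figure D3:**
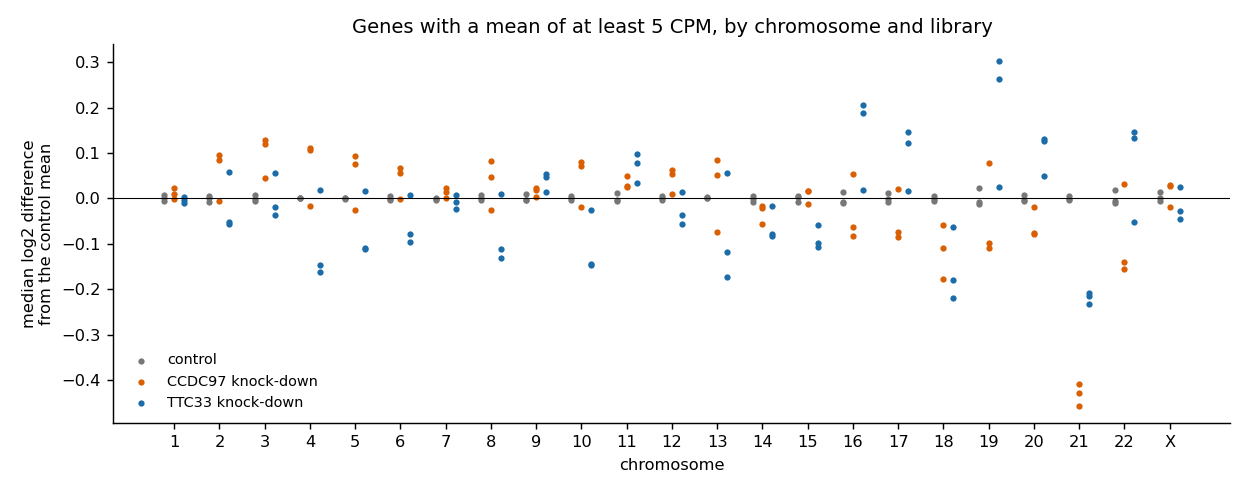
Median log2 difference from the control mean (vertical axis) over the genes of each chromosome (horizontal axis) with a mean of at least 5 CPM, one point a library and coloured by group. On chromosome 21 the 3 CCDC97 knock-down libraries lie at -0.41 to -0.46 and the 3 TTC33 knock-down libraries at -0.21 to -0.23.

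MCM3AP-AS1 passed in both knock-downs, together with its partner. It lies on chromosome 21 from 46229217 to 46259390 on the plus strand, overlaps MCM3AP at the 3 prime ends and shares 1427 exon bases with it. MCM3AP encodes a scaffold protein of nuclear mRNA export. MCM3AP-AS1 had 36.5, 36.7 and 33.8 CPM in controls, 20.4, 18.9 and 21.5 in the CCDC97 knock-down, and 26.9, 22 and 23.6 in the TTC33 knock-down. Neither knock-down overlapped the controls. The log2 fold changes were -0.82 ± 0.10 (SE; adjusted p = 0.00107 in edgeR) with CCDC97 depleted and -0.56 ± 0.09 (adjusted p = 0.00485) with TTC33 depleted. MCM3AP had 337, 343 and 329 CPM in controls, 228, 208 and 225 in the CCDC97 knock-down (-0.61 ± 0.07, adjusted p = 0.000561) and 271, 300 and 294 in the TTC33 knock-down (-0.22 ± 0.06, adjusted p = 0.0479). Both knock-downs share the control libraries. The fold change of MCM3AP-AS1 minus the median of chromosome 21 was -0.38 in the CCDC97 knock-down and -0.36 in the TTC33 knock-down. For MCM3AP this difference was -0.18 and -0.02. In the CCDC97 knock-down it was -0.23 for URB1, -0.05 for PAXBP1 and -0.04 for BTG3. For URB1-AS1, PAXBP1-AS1, BTG3-AS1 and C21orf62-AS1 it was -0.26, -0.22, -0.55 and -0.42 there.

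URB1-AS1 and its partner fell side by side in the CCDC97 knock-down. URB1, whose product takes part in making the large ribosomal subunit, starts 104 bases from URB1-AS1, and both share no exon base. URB1-AS1 had 12.5, 11.3 and 11.1 CPM in controls, 7.96, 7.23 and 6.34 in the CCDC97 knock-down and 8.55, 9.99 and 9.98 in the TTC33 knock-down. URB1 had 142, 144 and 142 CPM in controls, 98.3, 84.0 and 88.2 with CCDC97 depleted and 115, 127 and 130 with TTC33 depleted. With CCDC97 depleted the log2 fold changes were -0.69 ± 0.11 (adjusted p = 0.0068) and -0.66 ± 0.08 (adjusted p = 0.00107), and the change of their ratio was -0.03 ± 0.14 (limma adjusted p = 0.893). With TTC33 depleted neither passed (adjusted p = 0.0987 and 0.104).

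BTG3-AS1 and PAXBP1-AS1 differed between the knock-downs. BTG3-AS1, partner of a gene of the antiproliferative BTG family, had 2.98, 3.24 and 3.71 CPM in controls, 1.52, 1.98 and 1.45 in the CCDC97 knock-down (log2 fold change -0.98 ± 0.16, adjusted p = 0.00714) and 4.27, 3.88 and 4.63 in the TTC33 knock-down (0.37 ± 0.14, adjusted p = 0.113). The groups did not overlap, and the direct difference, TTC33 minus CCDC97 knock-down, was 1.35 (adjusted p = 0.000452). PAXBP1-AS1 fell from 5.15 ± 0.256 to 3.25 ± 0.472 CPM with CCDC97 depleted (-0.65 ± 0.12, adjusted p = 0.0166) and was at 5.82 ± 0.222 with TTC33 depleted (0.18 ± 0.12, adjusted p = 0.32). Its partner PAXBP1 fell in both, by 0.48 and 0.50 on the log2 scale. C21orf62-AS1 went from 4.37, 3.48 and 2.98 CPM in controls to 1.41, 2.48 and 2.13 in the CCDC97 knock-down (-0.85 ± 0.21, adjusted p = 0.0427), and its partner was too low to be tested.

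Outside chromosome 21 the largest fall in the CCDC97 knock-down among those that passed was that of BCAN-AS1. Its partner BCAN, the gene of the brain matrix proteoglycan brevican, was too low to be tested. BCAN-AS1 had 4.34, 4.27 and 3.39 CPM in controls, 2.37, 1.85 and 2.03 in the CCDC97 knock-down (log2 fold change -0.94 ± 0.15, adjusted p = 0.00691) and 4.63, 5.44 and 5.32 in the TTC33 knock-down (0.35 ± 0.14, adjusted p = 0.113). All CCDC97 knock-down libraries were below, and all TTC33 knock-down libraries above, every control. The direct difference was 1.3 (adjusted p = 0.000429).

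The other 9 that fell were ZEB1-AS1, RUNDC3A-AS1, DICER1-AS1, SRP14-AS1, TMC3-AS1, NIFK-AS1, PSMG3-AS1, SLC25A21-AS1 and NNT-AS1. DICER1-AS1 went from 4.55 ± 0.296 to 2.96 ± 0.472 CPM (log2 fold change -0.62 ± 0.14, adjusted p = 0.0294). DICER1, which encodes the enzyme that cuts microRNA precursors and shares most of the printed window, was at 340 ± 2.74 CPM in controls and 334 ± 36.6 in the CCDC97 knock-down (-0.03 ± 0.10, adjusted p = 0.92). NIFK-AS1 (-0.41), SLC25A21-AS1 (-0.53), PSMG3-AS1 (-0.55) and TMC3-AS1 (-0.63) also passed. The 8 tested partners of these 9 had edgeR adjusted p from 0.127 (SRP14) to 0.92 (DICER1), with fold changes from -0.03 for DICER1 to 0.57 for RUNDC3A, and TMC3 was not tested.

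Of the 15 calls in the CCDC97 knock-down, those of MCM3AP-AS1, BCAN-AS1 and BTG3-AS1 were kept in all 9 fits that left out a library. The other 12 lost theirs in 1 to 8 fits, with adjusted p up to 0.202. The count of 15 became 5 without CCDC97 knock-down replicate 2 or 3, 3, 4 or 5 without control replicate 1, 2 or 3, and 32 when TTC33 knock-down replicate 1, which enters the common spread, was left out. All 15 passed after the correction for GC content and length, when 43 fell and 6 rose. Of all 18299 genes 1500 fell and 2020 rose with this correction, against 456 and 379 without it.

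The sense partners moved in both directions. Of the 195 tested, 13 rose in the TTC33 knock-down and 10 fell (6.67% and 5.13%), close to the 6.5% and 5.44% of all genes, with a median log2 fold change of 0.02. There were 5 that rose and 7 that fell in the CCDC97 knock-down (2.56% and 3.59%, against 2.07% and 2.49%), with a median of 0.04. In 14 cases the partner was too low to be tested.

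RUNDC3A rose most. It encodes a RUN domain protein known from neurons and lies on chromosome 17 from 44308413 to 44318671 on the plus strand, and its nearest start is 20 bases from that of RUNDC3A-AS1 (44299574 to 44315315, minus strand). RUNDC3A had 0.497, 0.626 and 0.476 CPM in controls, 0.637, 0.859 and 0.919 in the CCDC97 knock-down and 3.79, 4.51 and 4.32 in the TTC33 knock-down (log2 fold change 2.96 ± 0.18, adjusted p = 4.47e-06). RUNDC3A-AS1 had 3.51, 3.18 and 3.17 CPM in controls and 3.08, 3.40 and 3.94 in the TTC33 knock-down, which overlap (0.07 ± 0.13, adjusted p = 0.729). It had 1.91, 2.11 and 1.89 CPM in the CCDC97 knock-down, below all other libraries (-0.73 ± 0.14, adjusted p = 0.0166). Both genes share 225 exon bases.

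The other partners that rose in the TTC33 knock-down included regulators of transcription. NR2F1, a nuclear receptor, had 47.4 ± 1.01 CPM in controls and 75.7 ± 4.28 after TTC33 depletion (SD, n = 3; a log2 fold change of 0.67 ± 0.09, adjusted p = 0.00102), while NR2F1-AS1 was at 16.2 ± 1.21 and 15.1 ± 1.06 CPM (-0.09 ± 0.10, adjusted p = 0.536). The repressor ZNF503 went from 51.5 ± 1.21 to 89.7 ± 16.1 CPM (0.80 ± 0.14), and GATA2 from 10.2 ± 0.0895 to 16.3 ± 2.26 CPM (0.68 ± 0.13). CDKN2B, an inhibitor of the cell cycle kinases CDK4 and CDK6, had 34.2, 32.0 and 34.1 CPM in controls and 46.1, 46.1 and 43.1 in the TTC33 knock-down (0.43 ± 0.07, adjusted p = 0.00522). CDKN2B-AS1, known as ANRIL, had 34.0, 32.2 and 34.1 CPM in controls and 31.8, 22.1 and 20.5 in the TTC33 knock-down (-0.43 ± 0.16, adjusted p = 0.10), so the RNAs of this pair lay on opposite sides of their controls and only the partner passed. VIM, the intermediate filament gene, rose from 616 ± 8.71 to 780 ± 63.0 CPM (0.34). SLC25A25 (0.39), NFYC (0.34), ATXN1 (0.31), TRAM2 (0.31), GOLGA4 (0.30) and GATA6 (0.28) rose as well, and RASSF8 (-0.51), SOX21 (-0.41), HMGN3 (-0.41) and CIRBP (-0.30) fell. The correction for GC content and length gave 0.60 for ZNF503, 0.50 for NR2F1, 0.50 for GATA2, 0.49 for CDKN2B and 0.37 for VIM. It also gave 0.47 for GOLGA4, 0.17 for GATA6, -0.22 for RASSF8 and -0.33 for SERTAD4. SERTAD4 fell from 70.1 ± 1.18 to 50.1 ± 5.84 CPM (-0.49 ± 0.09, adjusted p = 0.007), while SERTAD4-AS1 had 0.03 ± 0.12 (adjusted p = 0.906).

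Partners that passed in the CCDC97 knock-down outside chromosome 21 were ZBED3, CIRBP, ADGRL1 and TRIM52, which fell, and TTN, ZSCAN16, GOLGA4, SATB1 and TENM3, which rose. ZBED3 had 46.4, 44.7 and 48.6 CPM in controls and 32.2, 25.8 and 31.3 in the CCDC97 knock-down (log2 fold change -0.65 ± 0.09, adjusted p = 0.00407), and its antisense RNA ZBED3-AS1 was at 15 ± 0.313 and 14.9 ± 0.827 CPM. CIRBP, an RNA-binding protein induced by cold, went from 121 ± 3.11 to 93.2 ± 2.00 CPM (-0.37 ± 0.07), and GOLGA4, a golgin of the trans-Golgi, from 178 ± 1.57 to 227 ± 17.7 CPM (0.35 ± 0.07). CIRBP and GOLGA4 also passed in the TTC33 knock-down, with -0.30 and 0.30, against the same controls. TTN rose from 0.696 to 1.34 CPM (0.93 ± 0.20).

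Leaving out a library kept the calls of RUNDC3A, NR2F1, CDKN2B, ZNF503 and SERTAD4 in the TTC33 knock-down and of MCM3AP, URB1 and ZBED3 in the CCDC97 knock-down in all 9 fits. The other 18 and 9 partner calls were lost in 1 to 7 and in 4 to 7 fits. The count of 23 partners became 78, 8 or 7 without TTC33 knock-down replicate 1, 2 or 3 and 6, 5 or 6 without control replicate 1, 2 or 3. The count of 12 became 34, 4 or 3 without CCDC97 knock-down replicate 1, 2 or 3, 28 without TTC33 knock-down replicate 1 and 3 without any one control. With GC content and length corrected for, ZNF503-AS2 was at 0.30 in place of 0.48 in the TTC33 knock-down. Then 72 partners passed there and 50 in the CCDC97 knock-down, among them all 23 and 12. Of all genes 5042 and 3520 passed with this correction, against 2186 and 835 without it.

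Antisense RNA and partner both passed in few pairs, where few of either passed at all. Over all genes 11.9% passed with TTC33 depleted and 4.56% with CCDC97 depleted. How many joint passes the separate calls alone would give was not tested. With TTC33 depleted both passed in 5 of 197 pairs, the antisense RNA alone in 18 and the partner alone in 18. In 4 of the 5 both moved the same way, down for MCM3AP, IQCH and PRKCQ and up for ZNF503, and in 1 pair, PARD6G, they moved apart. With CCDC97 depleted both passed in 3 pairs, MCM3AP, URB1 and PAXBP1, all on chromosome 21 and all down, with 9 and 9 passing alone. Across the 197 pairs, which are not independent replicates and which share their libraries, Spearman's correlation between the fold changes of antisense RNA and partner was 0.14 with TTC33 depleted and 0.07 with CCDC97 depleted. It was 0.18 and -0.00804 over the 143 pairs with starts at most 1000 bases apart, and -0.03 and 0.24 over the 54 pairs with starts farther apart.

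**Figure D4:**
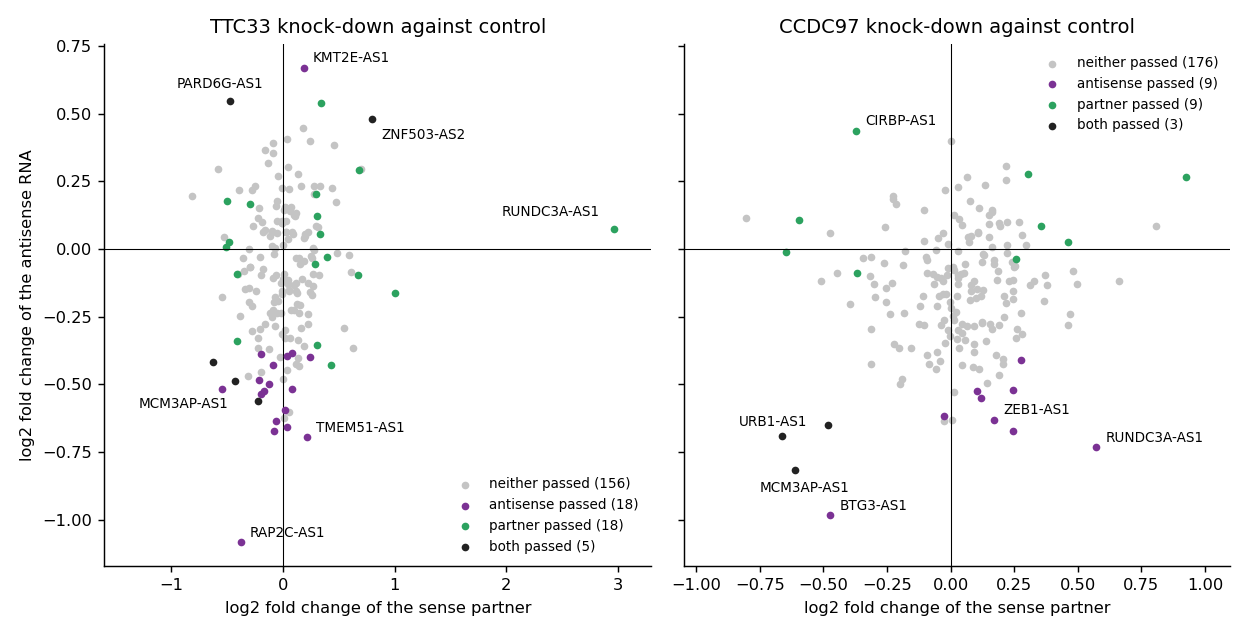
Log2 fold change of the antisense RNA (vertical axis) against that of its sense partner (horizontal axis) for 197 pairs with both genes tested, for TTC33 (left) and the CCDC97 knock-down (right), coloured by which gene passed an adjusted p of 0.05. The 5 and 3 pairs in which both passed are black, RUNDC3A-AS1 lies far to the right at left with a partner fold change of 2.96, and more points lie below 0 than above in the CCDC97 panel.

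PRKCQ-AS1 and PRKCQ fell together in the TTC33 knock-down. PRKCQ encodes protein kinase C theta, and the antisense RNA diverges from a start 118 bases away without shared exon bases. PRKCQ-AS1 had 12.5, 12.1 and 12.7 CPM in controls, 12.6, 12.9 and 13.5 in the CCDC97 knock-down and 10.7, 9.08 and 6.73 in the TTC33 knock-down (log2 fold change -0.49 ± 0.14, adjusted p = 0.043). PRKCQ had 16.9, 19.1 and 18.5 CPM in controls, 19.5, 19.2 and 20.0 with CCDC97 depleted and 13.7, 13.5 and 13.2 with TTC33 depleted (-0.43 ± 0.08, adjusted p = 0.00895). For both genes the TTC33 knock-down lay below every other library. IQCH-AS1 and IQCH, which overlap at their 3 prime ends, fell from 13.1 ± 1.28 to 9.83 ± 0.646 CPM and from 4.36 ± 0.246 to 2.82 ± 0.312 CPM.

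The ratio of antisense RNA to partner was tested with limma on log2 CPM over 444 pairs, of which 197 are those described here. With TTC33 depleted it passed against control in 3 of the 197 pairs, 1 higher and 2 lower (of all 444, 0.901% passed, 0.225% higher and 0.676% lower). With CCDC97 depleted it passed in 6, 2 higher and 4 lower (of all 444, 2.48% passed, 0.676% higher and 1.8% lower). In the TTC33 knock-down the ratio of RUNDC3A-AS1 to RUNDC3A fell by 2.77 on the log2 scale (SE 0.19, limma adjusted p = 1.42e-05), and that of TMEM51-AS1 to TMEM51 by 0.89 (adjusted p = 0.0494). The ratio of PARD6G-AS1 to PARD6G rose by 1.01 ± 0.17 (adjusted p = 0.0277). PARD6G encodes an adaptor of the cell polarity complex. PARD6G-AS1 had 3.43, 3.37 and 3.27 CPM in controls and 4.47, 5.44 and 4.82 in the TTC33 knock-down (0.55 ± 0.14, edgeR adjusted p = 0.0279). PARD6G had 13.6, 13.0 and 14.5 CPM in controls and 10.4, 10.2 and 8.99 in the TTC33 knock-down (-0.47 ± 0.12, adjusted p = 0.0272). Neither gene's groups overlapped, and both share no exon base and start 54832 bases apart.

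**Figure D5:**
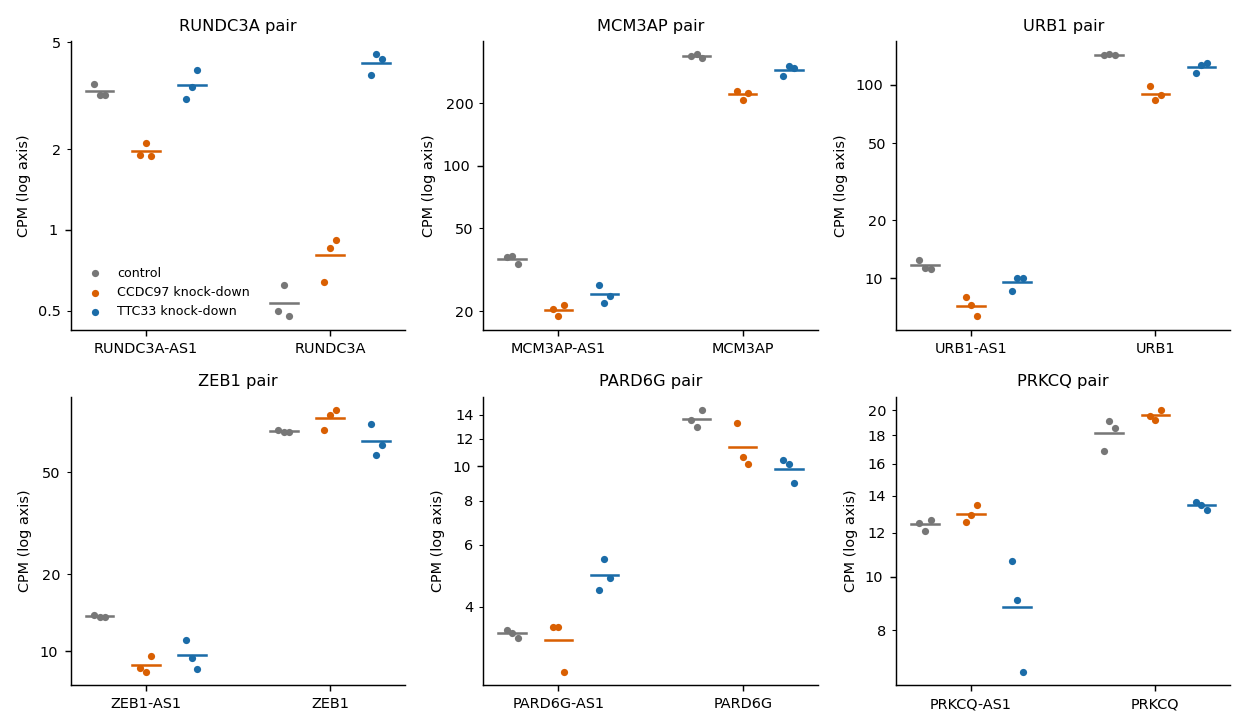
CPM on a log axis (vertical) of antisense RNA and sense partner in each library for 6 pairs (horizontal axis, 3 groups for each gene), with points for libraries and bars for group means. RUNDC3A rises in the TTC33 knock-down while RUNDC3A-AS1 stays at its control level, both genes of the MCM3AP and URB1 pairs are lower in the CCDC97 knock-down, and the PARD6G pair moves apart in the TTC33 knock-down.

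In the CCDC97 knock-down the ratio fell for RUNDC3A-AS1 (-1.25 ± 0.19, limma adjusted p = 0.0108), SRP14-AS1 (-0.90 ± 0.16), ZEB1-AS1 (-0.79 ± 0.15) and NNT-AS1 (-0.76 ± 0.15), and rose for CIRBP-AS1 (0.80 ± 0.18) and ADGRL1-AS1 (0.72 ± 0.16). ZEB1 is a repressor of epithelial genes. ZEB1-AS1, which starts 63 bases from ZEB1 and shares 366 exon bases with it, had 13.9, 13.6 and 13.6 CPM in controls, 8.60, 8.32 and 9.63 in the CCDC97 knock-down (-0.63 ± 0.11, edgeR adjusted p = 0.00921) and 11, 9.43 and 8.53 in the TTC33 knock-down (-0.50 ± 0.11, adjusted p = 0.0159). Both knock-downs lay below the controls. ZEB1 had 73.3, 71.7 and 71.6 CPM in controls and 72.9, 83.3 and 87.6 in the CCDC97 knock-down (0.17 ± 0.10, adjusted p = 0.398).

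SRP14-AS1 diverges from a start 123 bases from SRP14, a subunit of the signal recognition particle. It had 5.42, 4.22 and 5.01 CPM in controls, 3.15, 3.11 and 2.90 in the CCDC97 knock-down (log2 fold change -0.67 ± 0.15, adjusted p = 0.0307) and 2.57, 3.57 and 3.14 in the TTC33 knock-down (-0.66 ± 0.15, adjusted p = 0.0187), while SRP14 had 0.24 ± 0.08 (adjusted p = 0.127) and 0.04 ± 0.08 (adjusted p = 0.776). NNT-AS1, next to the gene of a mitochondrial transhydrogenase, had 29.4, 27.2 and 25.1 CPM in controls and 17.9, 18.7 and 20.4 in the CCDC97 knock-down (-0.52 ± 0.13, adjusted p = 0.0473), and NNT had 0.24 ± 0.09 (adjusted p = 0.165). In the CIRBP-AS1 and ADGRL1-AS1 pairs only the partner passed in edgeR. The antisense RNAs had 0.44 ± 0.14 (edgeR adjusted p = 0.101) and 0.11 ± 0.17 (adjusted p = 0.775). CIRBP fell by 0.37 on the log2 scale, so antisense RNA and partner of that pair lay on opposite sides of their controls. ADGRL1, the gene of an adhesion receptor, fell by 0.60. Of the ratio calls only that of RUNDC3A-AS1 in the TTC33 knock-down passed in all 9 fits that left out a library. With CCDC97 depleted, 0 of the 6 passed in limma without CCDC97 knock-down replicate 2 or 3 or control replicate 1, 1 without control replicate 2 or 3, and 3 without CCDC97 knock-down replicate 1 or TTC33 knock-down replicate 2. With TTC33 depleted, 10 ratios passed without TTC33 knock-down replicate 1, and 1 without its replicate 2 or 3, CCDC97 knock-down replicate 3 or any one control.

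Between the knock-downs themselves, 23 of the 211 antisense RNAs were higher with TTC33 depleted than with CCDC97 depleted and 7 were lower (10.9% and 3.32%, against 11.3% and 10.2% of all genes). The ratio to the partner differed in 23 of 197 pairs, higher in 13 and lower in 10, where 7.88% of all 444 pairs differed (4.5% higher, 3.38% lower). All libraries of the TTC33 knock-down lay above all of the CCDC97 knock-down for 42 of the 211 and below them for 25, where 15.9% and 14.5% of all genes did so. RAP2C-AS1 (-0.96) was lower in the TTC33 knock-down, and PSMG3-AS1 (0.70, adjusted p = 0.00604) and GATA2-AS1 (0.61, adjusted p = 0.00403) were higher. RUNDC3A-AS1 was higher by 0.81 (adjusted p = 0.00385), and its ratio to RUNDC3A was lower by 1.51 on the log2 scale.

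The antisense RNAs were also described by how they lie to their partners. Of the 147 antisense RNAs with starts at most 1000 bases apart, 15 fell (10.2%) and 2 rose (1.36%) with TTC33 depleted. Of the 64 others 7 fell (10.9%) and 1 rose (1.56%). Over all 211 the shares were 10.4% and 1.42%, and over all genes 5.44% and 6.5%. With CCDC97 depleted 9 of the 147 (6.12%) and 6 of the 64 (9.38%) fell, against 7.11% of all 211 and 2.49% of all genes. The medians in the CCDC97 knock-down were -0.17 for the 100 overlapping at their 5 prime ends, -0.19 for the 24 divergent ones, -0.10 for the 21 inside the partner, -0.12 for the 25 that enclose it and -0.06 for the 40 overlapping at their 3 prime ends. In the same order the medians with TTC33 depleted were -0.09, -0.23, -0.02, -0.12 and 0.06. Those that fell with CCDC97 depleted numbered 7, 3, 0, 2 and 3 in these classes (7%, 12.5%, 0%, 8% and 7.5%). With TTC33 depleted they numbered 9, 3, 1, 4 and 5 (9%, 12.5%, 4.76%, 16% and 12.5%). These differences between classes were not tested.

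Genes listed here under nuclear RNA decay and transcription termination mostly did not pass. Most of the list is machinery known to act on such RNAs, and whether ZCCHC14 belongs to it was not checked. Of 44 tested, including subunits of the exosome, its adaptors and the Integrator complex, 1 rose in the TTC33 knock-down, INTS5 (log2 fold change 0.38 ± 0.10, edgeR adjusted p = 0.031), and their median was 0.05. In the CCDC97 knock-down the exosome subunit EXOSC7 rose from 17.1 ± 0.463 to 26.0 ± 1.68 CPM (0.61 ± 0.08, adjusted p = 0.00327). There 3 fell, namely EXOSC6 (-0.33 ± 0.08, adjusted p = 0.0352), ZCCHC14 (-0.29 ± 0.07, adjusted p = 0.0335) and ZC3H18, a protein that links the cap-binding complex to decay. ZC3H18 went from 116 ± 1.77 to 82.5 ± 10.2 CPM (-0.50 ± 0.11, edgeR adjusted p = 0.0348). With TTC33 depleted it lay on the other side of controls without passing (0.36 ± 0.11, edgeR adjusted p = 0.0616). The share that passed was 2.27% and 9.09%, against 11.9% and 4.56% of all genes, and the median in the CCDC97 knock-down was 0.03.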

How the data were processed

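Total RNA of 9 libraries was sequenced, 3 a group. The authors deposited raw read counts for each gene, as whole numbers. For these, per the submitters' processing notes, they used Trimmomatic 0.39, HISAT2 and HTSeq 2.0.1 on GRCh38. The annotation release, the strand setting and the meaning of the 2 tables a sample (marked R12 and U) are not stated in any source used. The R12 table was tested. The U table held 6.55% to 11.9% of both together. Counts not assigned to an Ensembl gene, 33.4% to 57.9% of each library, were not used. Among them were reads marked ambiguous between genes, 3.90% to 6.11% of each library.

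filterByExpr kept 18299 genes for edgeR 4.0.16 under R 4.3.3 (TMM, quasi-likelihood fit of all 9 libraries, a term per group, 6 residual degrees of freedom), two-sided, with Benjamini-Hochberg adjustment over all of them and a threshold of 0.05. Passed, rose and fell refer to this threshold. The SE is the absolute fold change over the square root of F. Ratios of antisense RNA to partner were tested with limma 3.58.1 on log2 CPM with a prior count of 2, over all 444 pairs. Positions, exon overlap, GC content and length are from GENCODE release 29, with both of the latter known for 98.6% of tested genes. The counts may rest on another release. The scripts were tested on simulated data.

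Alternatives were DESeq2 1.42.0 and its size factors, no filter on low counts, a replicate block, the sum of both tables, a correction for GC content and length with mgcv 1.9.3, a prior count of 0.5, and leaving out each library. Leaving chromosome 21 out of the counts was added after seeing the data. The members and lists were chosen with earlier results of these data known. Named are the 6 highest members, up to 15 members, 10 partners and 8 ratios with the smallest adjusted p in each comparison, and the decay genes that passed. The pairs whose promoter windows are printed, the other members and partners that passed and the genes named between the knock-downs were chosen after their values were seen.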

Additional observations from a re-analysis of the deposited data

How the results depend on the processing

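For the antisense RNAs, partners and ratios that passed against control, no direction turned under the alternatives run. Values that did not pass and the differences between the knock-downs were not recomputed gene by gene. Over the alternatives 804 of these values stayed on their side of the threshold and 447 no longer passed. In the TTC33 knock-down correcting for GC content and length brought the count of genes to 5042, of antisense RNAs to 53, of partners to 72 and of ratios to 5, and testing without a filter raised the first 3 to 3821, 39 and 41. In the CCDC97 knock-down the correction gave 3520 genes, 49 antisense RNAs and 50 partners, DESeq2 gave 1471, 25 and 20, no filter gave 1369 genes, and a prior count of 0.5 gave 10 ratios. The cause was not tested. 

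Leaving out a library, the TTC33 knock-down gave 552 to 6512 genes, 3 to 56 antisense RNAs, 5 to 78 partners and 1 to 10 ratios. The CCDC97 knock-down gave 203 to 1981 genes, 3 to 32 antisense RNAs, 3 to 34 partners and 0 to 4 ratios. The direct comparison gave 1528 to 7767 genes. Of the members under 5 CPM 10.4% passed with TTC33 depleted and 9.43% with CCDC97 depleted, and of those above it 13.3% and 4.76%. Of all genes 11.9% and 4.56% passed.

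Replicate block fits gave 756 genes, 4 antisense RNAs, 7 partners and 1 ratio for TTC33, 240, 4, 3 and 1 for CCDC97, and 1857 genes between the knock-downs. Correlations of the deviations of same-numbered libraries were -0.50 to 0.09, so no such pair deviated clearly in the same direction. The lowest was that between replicate 1 of both knock-downs, and the next lowest was -0.14. Whether same-numbered libraries share a batch was not tested.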
